A study of Rattus norvegicus with 12 samples.

Results

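Markers of glial cells and repair Schwann cells (5 genes) were examined in RNA sequencing libraries from injured rat tissue: S100b (ENSRNOG00000001295), Gfap (ENSRNOG00000002919), Vim (ENSRNOG00000018087), Ngfr (ENSRNOG00000005392) and Gap43 (ENSRNOG00000001528). They were chosen by their row IDs, and all 5 are among the 30562 gene IDs of the deposited counts. Across the 12 libraries these 5 rows held 3 counts in all. S100b had 2, Vim had 1, and Gfap, Ngfr and Gap43 had 0. All 5 were too low to measure in every group, so no effect of exosomes or ultrasound on them could be tested from these counts, in either direction.

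The libraries came from Sprague-Dawley rats whose sciatic nerve was crushed, 3 libraries in each of 4 groups. The study used male rats aged 5 weeks. The control group (replicates 1, 4 and 9) carries only the crush in its labels and is taken as the PBS-injected group of the study. The iPSC-Exos group (replicates 2, 3 and 5) received 10 μL of exosomes from human induced pluripotent stem cells at the crush. The labels give 103, 104 and 105 μg/mL for its replicates, whereas the study chose 100 μg/mL for its animal experiments. Whether the dose differed between these replicates is not known here. The LIPUS group (replicates 2, 6 and 7) received low intensity pulsed ultrasound at 250 mW/cm² and 1 MHz with a 20% duty cycle, for 5 minutes on 5 days a week over 4 weeks. The iPSC-Exos + LIPUS group (replicates 1, 2 and 3) received both, with exosomes at 100 μg/mL. Every group carries the crush, and an uninjured group was not analysed here. The study sampled nerve on day 7 for its control and exosome groups, whereas the labels give 4 weeks of ultrasound, so when the libraries with ultrasound were sampled is not known here. The extraction text names sciatic nerve and the tissue label names whole brain. Nothing in the sources used here says whether each library is a separate rat, so p-values measure the spread between these libraries.

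Schwann cells are the glia of peripheral nerve. After a crush, those in the damaged stretch leave the myelinating state and become repair Schwann cells, which clear myelin, release trophic factors and form tracks along which axons regrow. Non-myelinating and repair Schwann cells are known for Gfap, Ngfr and Gap43, while S100b marks the lineage as a whole and Vim is also made by fibroblasts, macrophages and endothelial cells. The study stained injured nerve for S100 and reported more positive stain with exosomes than with PBS. By qPCR of nerve on day 7, it also reported S100b as higher with exosomes than with PBS. Whether the sequencing counts hold such a change is the question here. S100b had 0 counts in the control and iPSC-Exos libraries, so the counts could not be compared with the qPCR result.

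S100b encodes a calcium-binding protein of Schwann cells and astrocytes. It had 1 count in LIPUS replicate 6, 1 count in LIPUS replicate 7 and 0 in LIPUS replicate 2. It had 0 counts in each of the 3 control, 3 iPSC-Exos and 3 iPSC-Exos + LIPUS libraries. The LIPUS group overlapped the others at 0, and its highest value was a single read.

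The intermediate filament genes come next. Gfap, the filament of astrocytes and of non-myelinating Schwann cells, had 0 counts in all 12 libraries. Vim encodes vimentin, the filament of most cells of mesenchymal and immune origin and of immature glia. Its only count was 1 read in control replicate 4, and the other 11 libraries, among them control replicates 1 and 9, had 0.

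Of the genes tied to repair and growth, Ngfr encodes the low-affinity neurotrophin receptor p75, and Gap43 encodes a membrane protein of growing axons that denervated Schwann cells also make. Ngfr had 0 counts in all 12 libraries, and so did Gap43. In all, 57 of the 60 values (5 genes in 12 libraries) were 0.

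**Figure D1:**
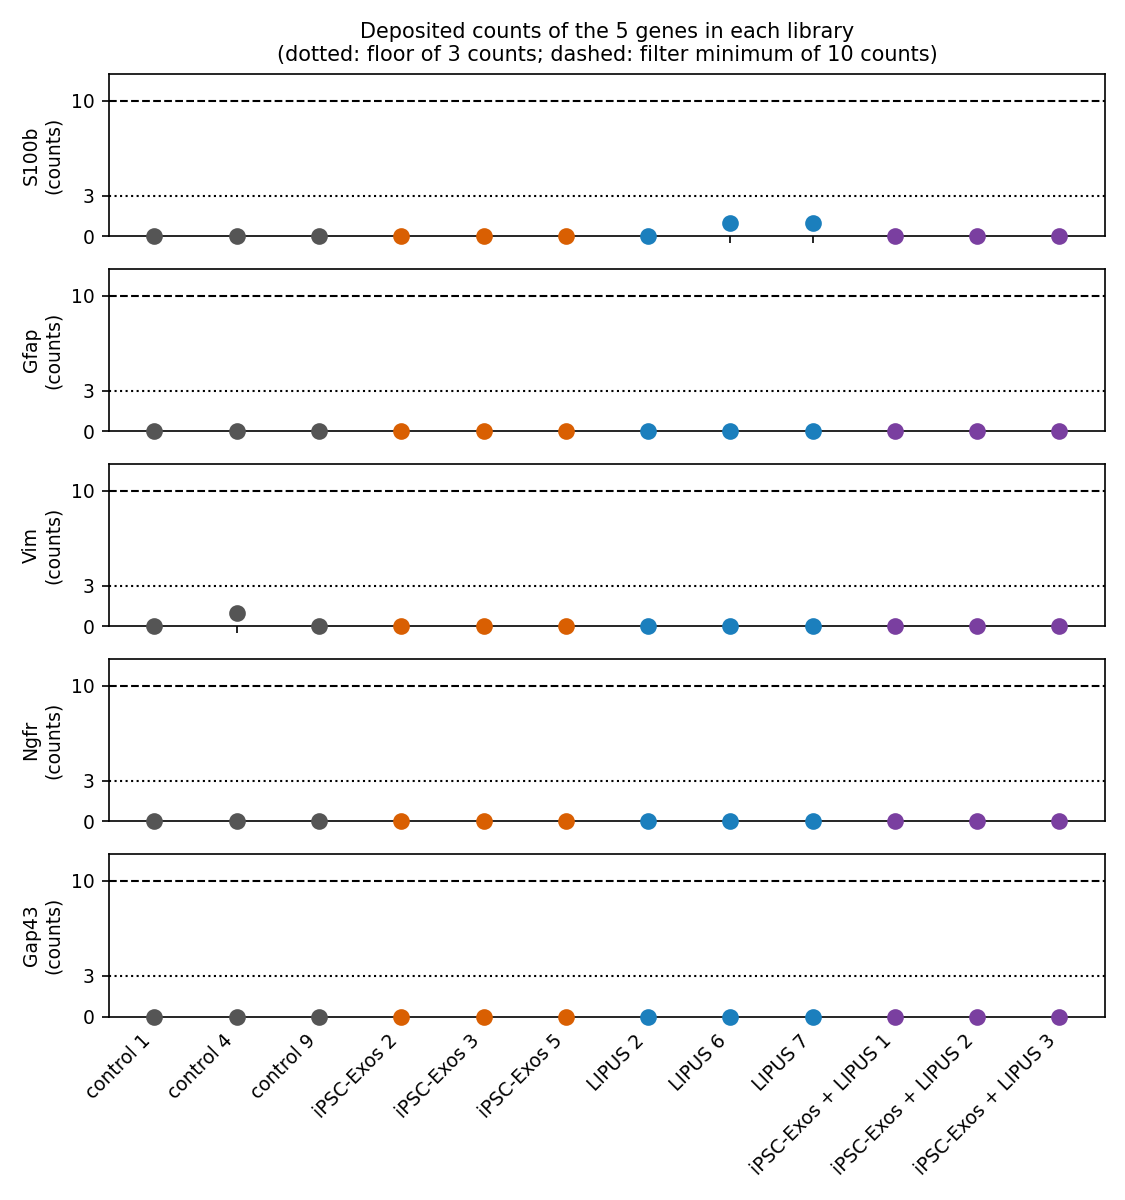
Deposited counts of each gene (y axis, counts) in each of the 12 libraries (x axis, group and replicate number), with the 3-count floor dotted and the minimum of 10 counts that the filter starts from dashed. Every point lies at 0 except S100b in LIPUS replicates 6 and 7 and Vim in control replicate 4, each at 1.

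The depth sets how many reads these zeros allow. Library totals lay between 1251715 and 1854545 counts, so the 3 counts that a value of 0 allows correspond to between 1.62 and 2.40 CPM (a count relative to its library total, on a scale shared by all libraries) in one library. Pooled over the 3 libraries of a group, a gene at 0 may have up to 0.668 CPM in the control group, 0.773 CPM in the iPSC-Exos group, 0.721 CPM in the LIPUS group and 0.704 CPM in the iPSC-Exos + LIPUS group. Over all 16797697 counts of the series, Gfap, Ngfr and Gap43 may each have had up to 0.179 CPM. These limits cover counting error only. They bound the reads assigned to these rows, and they bound the level of a transcript only if its reads were assigned to the row of its gene, which could not be checked.

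For the 2 genes with a read, an exact two-sided Poisson interval is given around the pooled level, which is a wider kind of limit than the 3 counts used for a value of 0. S100b had 2 of 4161822 counts in the LIPUS group, with an exact 95% Poisson interval of 0.0582 to 1.74 CPM. The mean over its 3 LIPUS libraries, scaled with TMM factors (which correct the library total for differences in composition), was 0.444 ± 0.386 CPM (SD, n = 3). Vim had 1 of 4491361 counts in the control group, with an exact 95% Poisson interval of 0.00564 to 1.24 CPM. Its mean over the 3 control libraries on the same scale was 0.239 ± 0.414 CPM (SD, n = 3). The lower ends of both intervals lie under the limit that a count of 0 allows in each of the other 3 groups, and the SD is close to the mean or above it, so neither gene can be placed above or below its level in another group. Since each group lies at or under the floor, the levels of the 4 groups have no order for any of the 5 genes and no fold change is given.

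**Figure D2:**
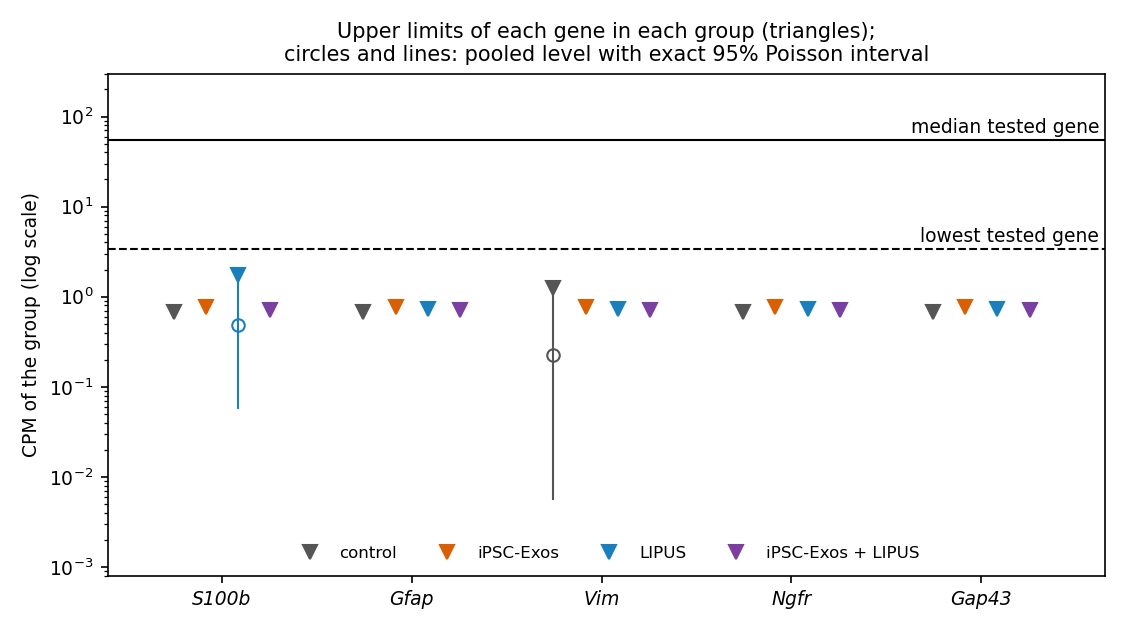
Upper limit of the pooled level of each gene (x axis) in each group (colours), in CPM on a log axis. Triangles are the limit that 3 counts allow or, for S100b in LIPUS and Vim in control, the upper end of the exact 95% Poisson interval drawn as a line around the pooled level (circle). Every triangle lies under the lowest mean level of a tested gene, 3.35 CPM (dashed), and the median tested gene is at 54.5 CPM (solid).

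The 5 genes were set against the whole of the deposited counts. Of the 30562 IDs, 16264 (53.2%) had 0 counts in all 12 libraries, and Gfap, Ngfr and Gap43 are among them. Vim shared its total of 1 with 2086 IDs in all, and S100b shared its total of 2 with 1250. Totals above that of S100b were found for 10962 IDs, or 35.9%, and totals above that of Vim for 12212 IDs, or 40.0%. The median ID had 0 counts, so 3 of 5 genes at 0 is near the share over all IDs. That share covers every ID, whether or not its gene is active in this tissue. It therefore does not show whether such low counts are usual for these genes in injured nerve, which was not tested.

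**Figure D3:**
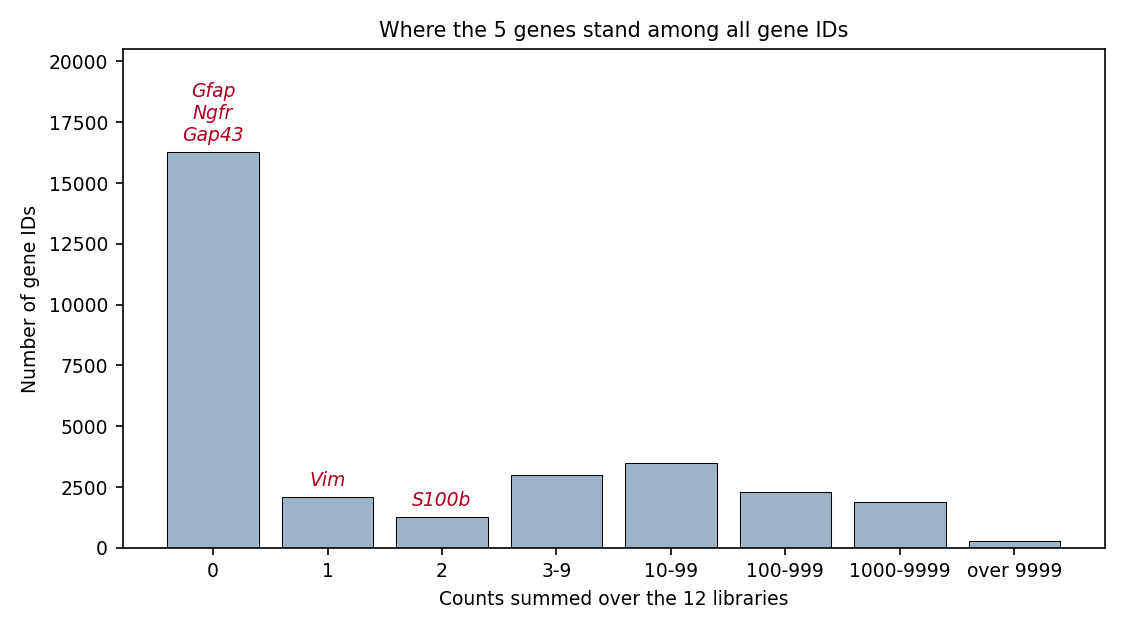
Number of gene IDs (y axis) by their counts summed over the 12 libraries (x axis, classes of total count), with the 5 genes named above the class that holds them. The tallest bar, 16264 IDs at 0, holds Gfap, Ngfr and Gap43, while Vim and S100b stand in the classes for 1 and 2 counts.

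Differences between groups were tested across genes with edgeR's quasi-likelihood test after its filter on low counts. The filter left 4278 genes for iPSC-Exos against control and 4640 for the 7 comparisons fitted on all 12 libraries, and 0 of the 5 genes were among them. The tested gene with the fewest reads had 56 counts over the 12 libraries, and the median tested gene had 905.5. None of the 5 genes could therefore be called in any of the 8 comparisons, at an adjusted p under 0.05 or at the study's own threshold, and a count of 0 called carries no information on their response. As background, 0.0468% of tested genes had an adjusted p under 0.05 for iPSC-Exos against control, and 6.08% met the study's threshold of an unadjusted p of at most 0.05 with a log2 fold change of 0.5 or more in either direction. The adjusted share was 1.94% for iPSC-Exos + LIPUS against control and 2.24% for the same group against LIPUS. It was 5.3% for the 6 libraries that received exosomes against the 6 that did not. It was 0% for LIPUS against control, iPSC-Exos + LIPUS against iPSC-Exos, all libraries with against without LIPUS and the interaction of the 2 treatments, where edgeR gave 113, 256, 183 and 196 genes at an unadjusted p under 0.05.

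An exact permutation test needs no such filter and was run on the log2 CPM of the 2 genes with a read, exchanging libraries within treatment strata (400 arrangements, two-sided, 4 tests, unadjusted). S100b had 0 counts in the 6 libraries with iPSC-Exos and 2 in the 6 without, a difference in mean log2 CPM of -0.18 (exact permutation p = 0.4). For the 6 libraries with LIPUS against the 6 without, the counts were 2 and 0 and the difference 0.18 (exact permutation p = 0.4). Vim had 0 counts with and 1 count without iPSC-Exos, and likewise 0 with and 1 without LIPUS, a difference of -0.10 in both (exact permutation p = 1 for each). The other 3 genes had the same value in every library and were not tested. The few reads set these p-values in advance. A single read gives the same absolute difference in every arrangement, so Vim could give no other p. With 1 read in each of 2 libraries, 0.4 is the lowest exact permutation p that S100b could reach. The tests could therefore not have shown an effect, and they carry no information on whether there was one. These differences rest on 1 or 2 reads and say nothing of the size of a change.

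S100b and Gfap mark brain astrocytes as well as Schwann cells, and vimentin is found in cells that every nerve contains. With both glial genes at 0 to 2 counts, these rows identify neither the nerve of the extraction text nor the brain of the tissue label. The zeros are reported as listed in the deposited counts and are not a measurement that the tissue lacked these transcripts. In bulk libraries such as these, fewer Schwann cells and less RNA per cell could not be told apart in any case. The deposited counts pair no ID with a gene name, and the reference table at hand holds all 5 symbols but an Ensembl ID for 0 of its 47357 genes, so whether these IDs belong to these symbols could not be checked. The labels name the genome build Rnor_6.0, but the annotation whose IDs were counted is not given in the sources used here, and whether it belongs to that build was not tested. Whether genes that every cell uses are also at 0 could not be checked by name. The values here therefore describe the rows with these IDs, and a low count in a row may not be a low level of the gene whose symbol is given. Other Schwann cell genes and markers of other cell types were not analysed here for the same reason.

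A single other gene, picked by these same counts as the largest over the 12 libraries, held 32.5% of all counts in control replicate 9. Its share was 0.391% to 9.28% in the other 11 libraries. All 5 genes had 0 counts in control replicate 9, as they had in 9 of the 12 libraries.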

How the data were processed

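Poly(A) RNA of 12 libraries was sequenced by the authors, 3 in each of 4 groups, taken from the titles. Per the labels, reads were trimmed with Trimmomatic (version 0.38) and aligned with HISAT2 (version 2.0.5) to Rnor_6.0, and SAMtools and StringTie are also named. The authors deposited raw counts per Ensembl gene ID, without normalization. The counting tool and annotation are not given in the sources used here.

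From these counts, genes were filtered with filterByExpr (minimum count 10), scaled by TMM and tested by the quasi-likelihood test of edgeR (version 4.0.16, R version 4.3.3). P-values were adjusted over all tested genes by the Benjamini-Hochberg method. The comparison of iPSC-Exos with control used 6 libraries, and the other 7 all 12. DESeq2 (version 1.42.0) was an alternative, beside scaling by RLE or by the upper quartile, dropping the filter, a stricter filter (10 counts or more in each library), the fit without the largest gene, another set of groups, the replicate number as a block and each replicate left out. log2 CPM used a prior count of 2 (0.5 as an alternative). The scripts were tested on simulated data built from rows with many more counts than the 5 genes had, so that test does not cover rows as low as theirs.

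The 5 genes were given by ID, all were to be described, and a gene under 10 counts in more than 9 of 12 libraries was called too low to measure. The genes and lists were chosen with earlier results of these data known. The most similar gene by pattern was to be named for 2 genes, but their patterns hold 2 reads and 1 read, so none is given. Replicates of a group differed by more than counting noise (a chi-square of 5.10 to 115.5 per degree of freedom, over genes with 10 or more counts), and each was used as its own sample.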

Additional observations from a re-analysis of the deposited data

How the results depend on the processing

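The number of the 5 genes called was 0 in all 8 comparisons and in the 144 alternative fits. In 128 of these fits, among them the 90 that each left out a replicate (lowest and highest value 0), none of the 5 genes was tested, so they say nothing of stability. With DESeq2 and without a filter (16 fits), Vim and, where libraries of the LIPUS group entered, S100b were tested, and 0 had an unadjusted p under 0.05: the lowest was 0.676 with DESeq2 and 0.217 without a filter in edgeR. For iPSC-Exos + LIPUS against iPSC-Exos, the fit with the replicate number as a block also called 0, since none of the 5 genes passed its filter. The 2 same-numbered pairs of these groups had deviations that correlated at -0.119 and -0.0110 across genes, so the numbers showed no pairing.

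In the permutation tests the lowest exact permutation p over 54 alternatives was 0.1, for S100b without LIPUS replicate 2. That is the lowest p that its 2 reads allow there, and none of the alternatives could give a p under 0.05. All reads of S100b lie in the LIPUS group and the only read of Vim in control replicate 4, so no alternative could turn a direction, and the unchanged sign is no sign of stability. With a prior count of 0.5 the difference of S100b with against without iPSC-Exos was -0.50, in place of -0.18, since the prior count sets the size of a difference of 2 reads. Without control replicate 4 Vim had no count and no test. Of the 40 alternative mean levels, 36 belong to genes at 0 throughout a group and could not move, and the other 4, of S100b in LIPUS and Vim in control, moved by less than 1 SD. At totals of 1251715 to 1854545 counts, no gene with a mean under 3.35 CPM was tested in the fit of all 12 libraries.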
